A study of Homo sapiens with 8 samples.

Results

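RRM2 and 8 other genes that set the supply of deoxynucleotides were followed through knockdown of the LIM-homeodomain factor LHX2 in a pair of esophageal squamous cell carcinoma lines. The members were RRM1, RRM2, RRM2B, TYMS, TK1, DCK, DTYMK, DUT and SAMHD1, taken by symbol from both deposited tables. All 9 were found, among 26008 genes listed for KYSE30 and 25561 listed for KYSE510, and all 9 had an adjusted p in both tables. RRM2 was chosen by its rise after knockdown in these same tables, so its change is given as a description with no test, while the other 8 were listed for their function.

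KYSE30 and KYSE510 are established human cell lines of esophageal squamous cell carcinoma. Each was studied as KYSE30 shNC, KYSE30 shLHX2, KYSE510 shNC and KYSE510 shLHX2, with 2 libraries of total RNA per group and 8 in all. Cells of shLHX2 stably carried a short hairpin RNA against LHX2 delivered by lentivirus, and cells of shNC carried a control hairpin, so both groups had taken up a hairpin. The labels and methods do not state if the libraries of shLHX2 share 1 hairpin, nor if libraries came from separate cultures, so a p-value here measures the spread between these libraries only. They do not state the time between infection and harvest either.

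Ribonucleotide reductase makes deoxynucleotides from ribonucleotides and is the rate-limiting step of their synthesis. Its large subunit, RRM1, pairs with the small subunit RRM2, which proliferating cells make in S phase and degrade in mitosis, or with RRM2B, a small subunit that p53 induces. Thymidylate is made from deoxyuridylate by TYMS, with DUT supplying the substrate from dUTP and DTYMK phosphorylating the product, while the kinases TK1 and DCK salvage deoxynucleosides, and SAMHD1 breaks deoxynucleotides down.

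The windows from 250 bases before to 50 after an annotated start are shown for RRM2 and for the 4 other members that were past the test in KYSE510 (an adjusted p under 0.05 over all genes of the table). They are RefSeq sequences of GRCh38.p14 on the strand of the gene, 5′ to 3′, and where a gene has several starts the window with the most motif words is shown. Capitals mark the CCAAT box (CCAAT, bound by NF-Y) and the E2F words, which are TTTCGCG with 3 relatives, namely TTTCCCG as one, then TTTGGCG as another and lastly TTTGCCG, all searched on both strands.
RRM2, chr2:10122489-10122788, plus strand: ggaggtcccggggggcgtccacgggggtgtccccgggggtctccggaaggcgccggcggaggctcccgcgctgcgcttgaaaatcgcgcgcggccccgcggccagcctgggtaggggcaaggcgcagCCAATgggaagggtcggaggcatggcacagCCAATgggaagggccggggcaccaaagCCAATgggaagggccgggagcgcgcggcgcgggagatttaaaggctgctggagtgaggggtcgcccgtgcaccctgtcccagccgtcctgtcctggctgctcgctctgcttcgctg
RRM1, chr11:4094435-4094734, plus strand: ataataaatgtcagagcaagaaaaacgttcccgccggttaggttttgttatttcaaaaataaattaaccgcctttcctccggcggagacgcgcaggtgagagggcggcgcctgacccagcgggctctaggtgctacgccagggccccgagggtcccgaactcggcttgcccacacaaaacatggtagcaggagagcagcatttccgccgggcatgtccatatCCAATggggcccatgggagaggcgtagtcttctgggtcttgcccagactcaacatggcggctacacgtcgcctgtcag
TYMS, chr18:657403-657702, plus strand: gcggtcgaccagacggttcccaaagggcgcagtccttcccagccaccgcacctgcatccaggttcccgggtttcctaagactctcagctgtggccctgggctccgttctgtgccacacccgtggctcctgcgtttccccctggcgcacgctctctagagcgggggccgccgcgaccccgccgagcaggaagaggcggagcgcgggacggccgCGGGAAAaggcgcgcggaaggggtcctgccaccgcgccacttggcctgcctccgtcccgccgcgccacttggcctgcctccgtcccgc
DUT, chr15:48331947-48332246, plus strand: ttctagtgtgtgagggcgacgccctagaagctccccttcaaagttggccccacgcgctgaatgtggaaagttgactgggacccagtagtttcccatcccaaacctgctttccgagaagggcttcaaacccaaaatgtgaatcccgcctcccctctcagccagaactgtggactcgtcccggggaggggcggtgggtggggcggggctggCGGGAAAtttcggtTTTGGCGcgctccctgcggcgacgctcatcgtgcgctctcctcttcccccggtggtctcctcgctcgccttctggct
TK1, chr17:78187003-78187302, minus strand: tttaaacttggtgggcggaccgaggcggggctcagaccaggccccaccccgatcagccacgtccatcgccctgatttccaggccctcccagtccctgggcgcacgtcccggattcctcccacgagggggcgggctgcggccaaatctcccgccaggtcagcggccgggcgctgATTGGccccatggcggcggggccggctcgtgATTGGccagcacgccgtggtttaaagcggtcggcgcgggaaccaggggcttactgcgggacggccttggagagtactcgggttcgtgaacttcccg

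The RRM2 window held 3 CCAAT boxes, at -123, -93 and -66 from the start, and the same 8 bases, gggaaggg, followed each of them. Since the window with the most words is shown, shares are given over genes by the best window of each: of 27305 genes, 39.7% had a window with a CCAAT box, 12.9% one with at least 2 and 3.92% one with at least 3. Over all 35116 windows these shares were 34.6%, 10.8% and 3.26%. TK1 held 2 CCAAT boxes, at -77 and -46, and RRM1 held 1 at -28. The other windows of these genes held 1 CCAAT box for RRM2 and 0 for TK1, and those of DUT held 0 E2F words. E2F words stood in the windows of TYMS, at -38, and DUT, at -41 and -27. Of all genes, 10.4% had a window with an E2F word and 0.828% one with at least 2. Members that did not pass the test in KYSE510 and are not shown held such words too. DTYMK and SAMHD1 had 2 CCAAT boxes and 1 E2F word each, and DCK had 0 CCAAT boxes and 1 E2F word. The words are therefore no trait of the members that passed. The word TAATTA, a core of the sites that LIM-homeodomain proteins bind, was in none of the 5 windows shown and in a window of 5.95% of genes. GGGCGG (an SP1 word) and the CHR word TTTGAA with its variant TTCGAA were searched as well, and none of the matches in these 5 windows overlapped another. A match is a description of letters and says nothing of binding.

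**Figure D1:**
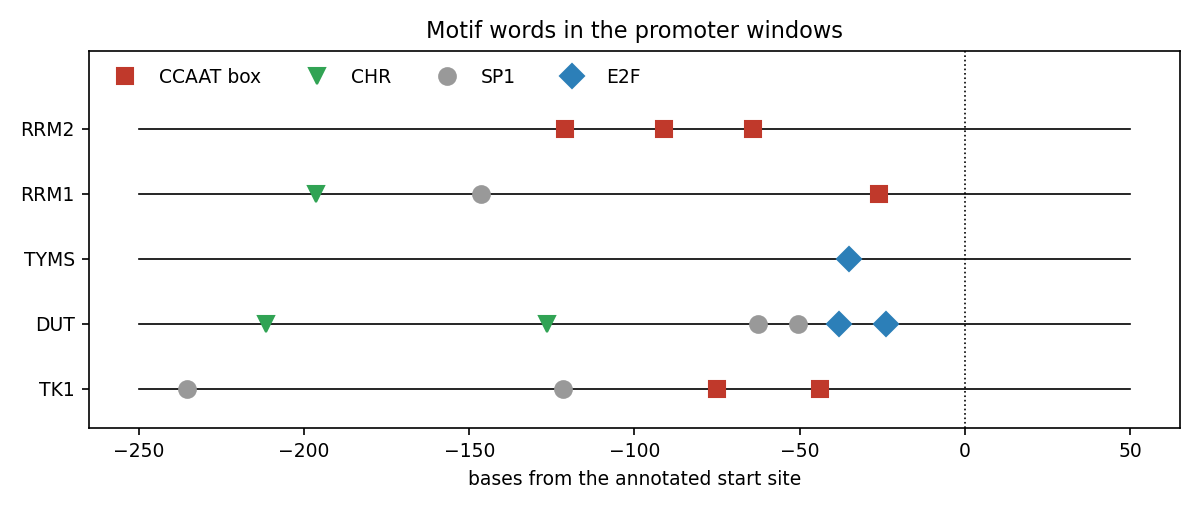
Positions of motif words in the promoter windows of RRM2, RRM1, TYMS, DUT and TK1, drawn from 250 bases before to 50 after the annotated start (dotted line). Each symbol is a match on either strand, and the 3 CCAAT boxes of RRM2 lie between -123 and -62.

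Both lines were first checked against their labels. The tables give no values per library, so the reads of each library were worked back (reconstructed) for each gene from its mean, fold change and standard error. In KYSE30, LHX2 had 32 and 50 reads in the shLHX2 libraries and 99 and 112 in the shNC libraries, a log2 fold change of -1.45 ± 0.34 (SE, n = 2 per group; adjusted p = 0.000123). In KYSE510, LHX2 had 13 and 1 reads with shLHX2 and 14 and 8 with shNC, so that 1 shLHX2 library lay in the range of the controls. The exact Poisson interval of its 13 reads runs from 6.92 to 22.2 and covers counting error only, and LHX2 had no adjusted p in that table. The label of KYSE510 shLHX2 therefore could not be checked by LHX2 at this depth, and KYSE510 values without that library are given below. The paper examined LHX2 knockdown in its KYSE30 and KYSE510 cells by qRT-PCR and Western blotting, outside these libraries. Of 8 squamous epithelial markers, 0 rose and 5 fell in KYSE30, and 1 rose and 4 fell in KYSE510. Over all genes tested, 13.9% rose and 15.7% fell in KYSE30, and 7.89% rose and 10.8% fell in KYSE510. TP63 (mean normalized counts of 2349 in KYSE30 and 7681 in KYSE510) fell in both lines (log2 fold change -0.89 and -0.44), as did KRT6A (-1.60 and -1.16) and KRT5 (-2.97 and -0.32), which was at a mean of 12.9 in KYSE30 against 30946 in KYSE510. SOX2 passed in opposite directions, at -0.56 in KYSE30 (adjusted p = 1.86e-15) and 0.62 in KYSE510 (adjusted p = 0.00621). Of 12 immune, endothelial and fibroblast markers, 5 were tested in KYSE30, where 4 fell, and 3 in KYSE510, where 1 fell. Summed over the 5 and 8 of them with reads worked back, their normalized counts per library were 379 to 387 (shLHX2) against 699.7 to 712 (shNC) in KYSE30, and 1253 to 1289 against 1478 to 1591 in KYSE510. CDH5 (-1.30), CD68 (-1.25), COL1A1 (-0.53) and LYZ (-4.95, at a mean of 7.65) fell in KYSE30, and CD68 (-0.48) fell in KYSE510. PTPRC, the pan-leukocyte marker, which was named after its values were seen, had means of 6.01 and 1.83. The part of these shifts in the results was not tested. Reads over the genes that could be worked back ranged from 14826644 to 19626660 per library.

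RRM2, the small subunit of ribonucleotide reductase that limits its activity in dividing cells, was about doubled in both lines. In KYSE30 it had 4093 and 3617 reads in the shLHX2 libraries and 1668 and 1758 in the shNC libraries, which is 3796 and 3634 against 1672 and 1858 reads after division by the size factor (normalized counts). In KYSE510 the normalized counts were 4040 and 4016 with shLHX2 and 2002 and 1983 with shNC, from 4850, 3933, 1907 and 1788 reads. The groups lay far apart in each line, and libraries of 1 group differed by at most 10.6% of their mean. The fold was 2.11 in KYSE30 (95% interval 1.94 to 2.28) and 2.02 in KYSE510 (1.86 to 2.20), or 1.07 ± 0.06 and 1.02 ± 0.06 on the log2 scale (SE, n = 2 per group). The difference between the lines, KYSE510 minus KYSE30, was -0.06, with an interval from -0.23 to 0.11. RRM2 was chosen by its rise in these same data, and none of these intervals allows for that choice. In KYSE30, 411 of 15923 tested genes had a larger fold change, and in KYSE510 49 of 12676 did. Of the 12311 genes tested in both lines, 16 exceeded RRM2 in both, and none of the 3475 with a mean of at least 1000 in both tables did. These ranks and the gap between the groups come from the values by which RRM2 was chosen, so nothing is read from them.

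**Figure D2:**
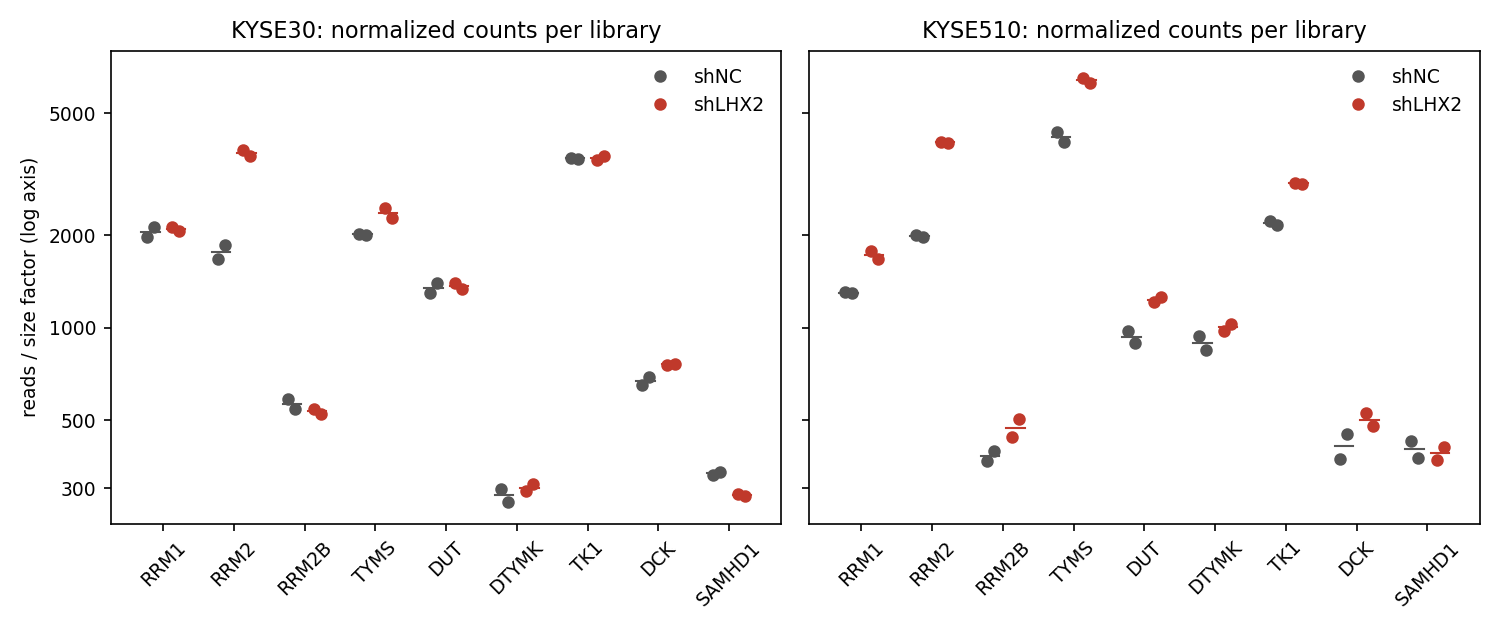
Normalized counts (reads over size factor, log axis) of the 9 genes in every library of KYSE30 (left) and KYSE510 (right), with 2 points and a line at the mean per group. RRM2 with shLHX2 sits between 3634 and 4040, above every shNC library (1672 to 2002), while TK1 and TYMS are apart in KYSE510 and closer together in KYSE30.

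RRM2 lies at chr2:10120698-10131419 on the plus strand of hg38, as annotated in GENCODE release 29, and the annotated protein-coding gene AC007240.1 shares 1077 of its exon bases on the same strand. AC007240.1 had 122 and 115 reads with shLHX2 and 24 and 26 with shNC in KYSE30, and 100 and 80 against 30 and 33 in KYSE510. It rose in both lines, by a log2 fold change of 2.15 ± 0.33 (adjusted p = 9.53e-10) and 1.28 ± 0.42 (adjusted p = 0.0163). Reads in the shared exons cannot be told apart by gene, and the labels do not state how they were counted. AC007240.1 reads amounted to at most 3.18% of RRM2 reads in any library, and the log2 fold change of the summed reads of both genes was 1.10 in KYSE30 and 1.02 in KYSE510. The pseudogenes RRM2P2 and RRM2P3 had means of 0.464 and 0.251 in KYSE30.

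Of the partner subunits, RRM1 passed the deposited test in KYSE510 only, and RRM2B passed it in neither line. RRM1, the large subunit that carries the catalytic and allosteric sites, had normalized counts of 2130 and 2061 with shLHX2 and 1975 and 2138 with shNC in KYSE30, where the groups overlapped. Its log2 fold change there was 0.03 ± 0.06 (adjusted p = 0.791). In KYSE510 RRM1 rose, from 1306 and 1294 with shNC to 1777 and 1680 with shLHX2, by 0.41 ± 0.08 (SE, n = 2 per group; adjusted p = 1.95e-05). RRM2B, the p53-inducible small subunit, had 544 and 523 normalized counts with shLHX2 and 586 and 543 with shNC in KYSE30 (log2 fold change -0.08 ± 0.10, adjusted p = 0.627). In KYSE510 it had 440 and 505 against 367 and 396, which did not overlap, at 0.31 ± 0.16 and an adjusted p of 0.183. That call depended on the test, since limma on the same reads gave RRM2B an adjusted p of 0.0073 in KYSE510 (0.0035 to 0.227 without 1 library in turn). RRM1 shares 63 exon bases with the antisense gene RRM1-AS1, for which no value is given here.

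Within a library the ratio of reads of 2 genes does not depend on the size factor. RRM2 over RRM1 was 1.78 and 1.76 with shLHX2 and 0.846 and 0.869 with shNC in KYSE30. In KYSE510 it was 2.27 and 2.39 against 1.53 and 1.53. The ratio of RRM2 to RRM1 was higher with shLHX2 in both lines. RRM2 was chosen by its rise in these same libraries, so nothing is read from the separation of its ratios. RRM2 over RRM2B was 6.97 and 6.94 with shLHX2 and 2.85 and 3.42 with shNC in KYSE30, and 9.19 and 7.95 against 5.45 and 5.01 in KYSE510. Per kilobase of the principal transcript, the level of RRM2 in KYSE30 shNC (487 and 542 normalized counts per kb) was below that of RRM1 (642 and 695), and in KYSE30 shLHX2 it was above it (1106 and 1059 against 693 and 670). In KYSE510, RRM2 was already above RRM1 in shNC (584 and 578 against 425 and 421).

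**Figure D3:**
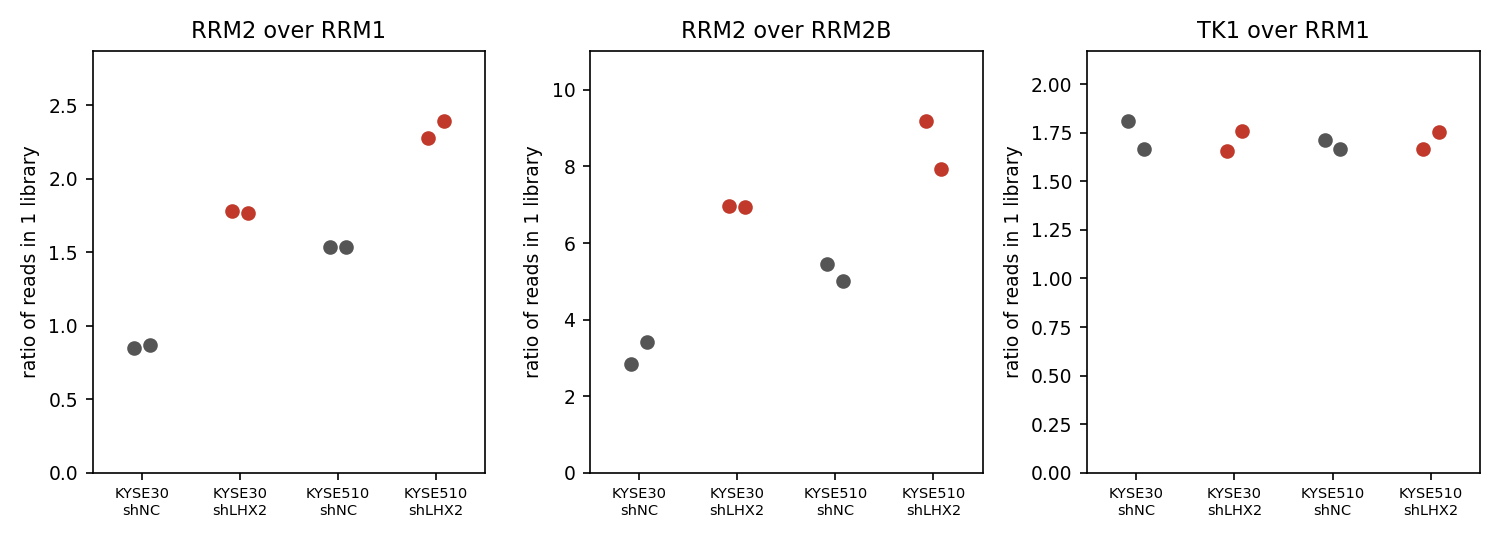
Ratios of reads within each library for RRM2 over RRM1, RRM2 over RRM2B and TK1 over RRM1 (grey for shNC, red for shLHX2; 2 libraries per group; axes from 0). The RRM2 ratios are higher in shLHX2 than in shNC of the same line, and RRM2 was chosen by its rise in these data. TK1 over RRM1 stays between 1.65 and 1.81 in all 8 libraries.

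Among the thymidylate genes, TYMS rose in both lines and rose further in KYSE510. TYMS, which methylates deoxyuridylate to thymidylate, had normalized counts of 2461 and 2274 with shLHX2 and 2028 and 2009 with shNC in KYSE30. The log2 fold change was 0.23 ± 0.06 (SE, n = 2 per group; adjusted p = 0.000481), a fold of 1.17. In KYSE510 it had 6538 and 6279 against 4344 and 4021, a log2 fold change of 0.62 ± 0.05 (adjusted p = 2.44e-28) and a fold of 1.53. For these reads 3 sets of whole numbers met the tolerance, and the set given returns the log2 fold change within 5.13e-10, against 4.2e-06 for the next. The KYSE30 call was lost when fold changes were centred on 14 reference genes, whose median was 0.15 in that line (TYMS then 0.08, adjusted p = 0.314). Of these 14, 7 rose and 3 fell in KYSE30, where 13.9% of all genes rose and 15.7% fell. PGK1 (0.42), PPIA (0.32) and RPLP0 (0.18) were higher and GAPDH (-0.19) was lower. TYMS shares 967 exon bases with ENOSF1 and 183 with TYMSOS, both on the opposite strand, and without a statement of strand in the counting these reads cannot be told apart. ENOSF1 had means of 800 and 3460, with fold changes of -0.12 and -0.06 that did not pass the test (adjusted p = 0.350 and 0.523).

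DUT, the dUTPase that keeps uracil out of DNA and supplies deoxyuridylate, had normalized counts of 1399 and 1337 with shLHX2 and 1301 and 1398 with shNC in KYSE30. The groups overlapped, and the log2 fold change was 0.02 ± 0.07 (adjusted p = 0.875). In KYSE510 DUT rose from 974 and 891 to 1214 and 1257, by 0.40 ± 0.10 (adjusted p = 0.000659). DTYMK, the kinase that turns thymidylate into its diphosphate, did not pass the deposited test in either line. It had 293 and 308 normalized counts with shLHX2 against 299 and 271 with shNC in KYSE30 (0.08 ± 0.14, adjusted p = 0.749), and 978 and 1029 against 940 and 849 in KYSE510 (0.16 ± 0.11, adjusted p = 0.329). limma on the same reads called DTYMK in KYSE510 (adjusted p = 0.0399, and 0.0053 to 0.336 without 1 library in turn). DUT shares 533 exon bases with the antisense gene AC023355.1, whose means were 31.9 and 22.1, and the DUT pseudogenes listed (DUTP2, DUTP6 and DUTP7) had means of at most 1.99.

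The salvage kinase TK1, which phosphorylates thymidine in S phase, had the largest difference between the lines among the 9 genes. In KYSE30 it had 3524 and 3629 normalized counts with shLHX2 and 3576 and 3563 with shNC, and the control values lay inside the range of the knockdown values. The log2 fold change was 0.00 ± 0.04, with an interval from -0.08 to 0.09 (adjusted p = 0.976). In KYSE510 TK1 rose from 2236 and 2158 to 2966 and 2948, by 0.43 ± 0.07 (SE, n = 2 per group; adjusted p = 2.2e-09). Centring on the reference genes turned the KYSE30 value to -0.15 (adjusted p = 0.00179), a fall, so the direction of TK1 in KYSE30 rests on the scaling. TK1 over RRM1 was 1.67 and 1.76 with shLHX2 and 1.71 and 1.67 with shNC in KYSE510, and these ranges overlapped.

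DCK, which phosphorylates deoxycytidine and activates the drug gemcitabine, had 758 and 761 normalized counts with shLHX2 against 650 and 689 with shNC in KYSE30, at 0.18 ± 0.09 (adjusted p = 0.117). In KYSE510 it had 526 and 478 against 374 and 450, at 0.29 ± 0.16 (adjusted p = 0.222). Neither passed the deposited test, although the groups did not overlap in either line. limma on the same reads gave DCK adjusted p values of 0.0406 and 0.0106. With 1 library left out this call was lost in 3 of 4 cases in KYSE30 (adjusted p up to 0.193) and in 2 of 4 in KYSE510, namely without the shLHX2 library with 13 LHX2 reads (0.22, adjusted p = 0.177) and without the shNC library with 356 DCK reads (0.15, adjusted p = 0.236). DCK shares 199 exon bases on the same strand with MOB1B, which did not pass the test in either line (0.0072 and -0.13, adjusted p = 0.965 and 0.682). SAMHD1, the hydrolase that breaks deoxynucleotides down to deoxynucleosides, was the 1 member with a fold change below 0 in both lines, and it did not pass the test. Its sign in KYSE510 turned when limma left out the shLHX2 library with 13 LHX2 reads (0.024) or 1 of the shNC libraries (0.050). It had 287 and 282 normalized counts with shLHX2 against 332 and 338 with shNC in KYSE30 (-0.24 ± 0.13, adjusted p = 0.191), and 371 and 407 against 427 and 376 in KYSE510 (-0.05 ± 0.16, adjusted p = 0.907). Centring on the reference genes took SAMHD1 in KYSE30 past the test, at -0.39 (adjusted p = 0.0129). TLDC2, which shares 1159 exon bases with SAMHD1 on the opposite strand, had means of 1.70 and 2.30.

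Leaving RRM2 out, 1 of the other 8 genes rose in KYSE30 (TYMS) and 4 rose in KYSE510 (RRM1, TYMS, TK1 and DUT), and none of the 8 fell. Of all genes tested, 13.9% rose and 15.7% fell in KYSE30, and 7.89% rose and 10.8% fell in KYSE510. Centred on the reference genes, 0 of the 8 rose and 2 fell in KYSE30 (TK1 and SAMHD1), and the same 4 rose in KYSE510. After that centring, 5878 of all 15923 genes passed in KYSE30 (1030 higher) and 2448 of 12676 in KYSE510 (786 higher). TYMS in KYSE510 was the 1 of the 8 that also changed at least 1.5-fold, against 3.17% of all genes higher by that rule in KYSE30 and 1.4% in KYSE510. Since the list was chosen with results known, nothing is read from these counts. The median log2 fold change of the 8 was 0.02 in KYSE30 and 0.36 in KYSE510, where the median over all tested genes was 0.00 in both. The libraries of both groups did not overlap, with shLHX2 higher, for 2 of the 8 in KYSE30 and 7 in KYSE510, against 33.9% and 33% of all genes worked back. With RRM2 included, limma on the reads called 8 of the 9 members in KYSE510, where it called 4805 of all 12606 genes. Without that library the log2 fold changes were 1.01 for RRM2, 0.59 for TYMS, 0.42 for TK1, 0.37 for RRM1 and 0.43 for DUT.

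**Figure D4:**
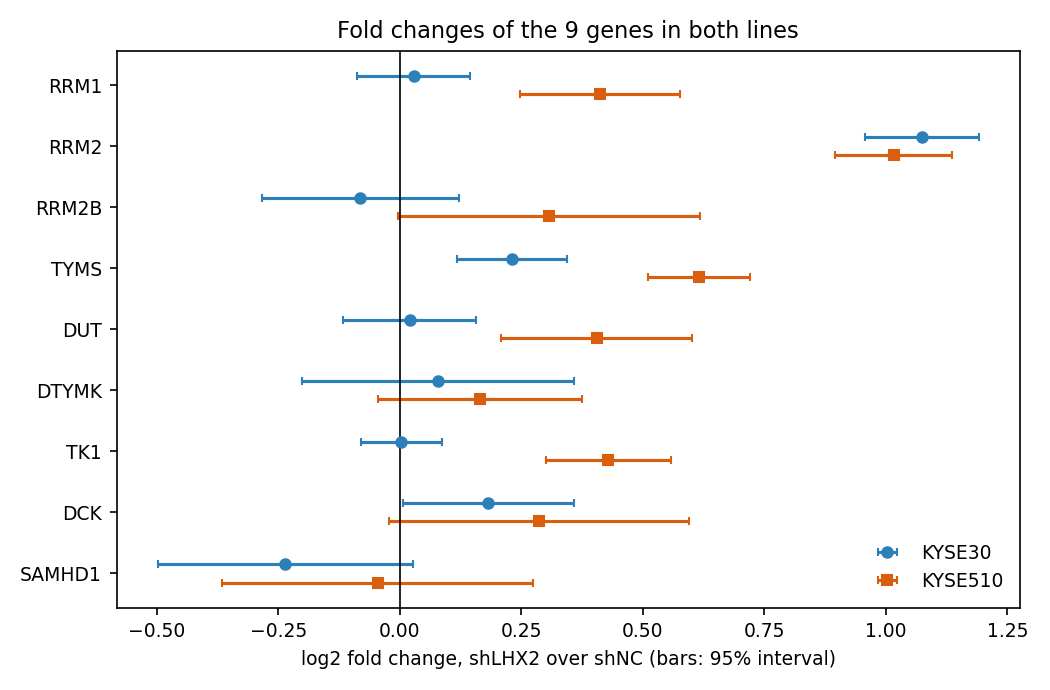
Log2 fold changes (shLHX2 over shNC) of the 9 genes in KYSE30 (circles) and KYSE510 (squares), with bars for the 95% interval from the deposited standard error. RRM2 is near 1 in both lines, with bars that do not allow for its choice on these data. RRM1, TYMS, DUT and TK1 lie further right in KYSE510.

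The change differed between the lines for 4 of the 8 genes other than RRM2, each with the larger value in KYSE510, against 5.95% of the 12311 genes tested that were higher there and 11.9% that differed in either direction. The difference (KYSE510 minus KYSE30, log2, with its 95% interval) was 0.43 (0.27 to 0.58; adjusted p = 2.13e-06) for TK1 and 0.39 (0.23 to 0.54; adjusted p = 3.55e-05) for TYMS. It was 0.38 (0.18 to 0.59; adjusted p = 0.00335) for RRM1 and 0.38 (0.15 to 0.62; adjusted p = 0.0184) for DUT. RRM2B differed by 0.39 (0.02 to 0.76), which did not pass the test (adjusted p = 0.192). DCK, DTYMK and SAMHD1 differed by 0.10, 0.09 and 0.19, with intervals of -0.25 to 0.46, -0.26 to 0.44 and -0.22 to 0.60 that leave room for a difference as large as that of TK1. The tables were normalized separately, so only fold changes and not levels were tested across the lines.

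**Figure D5:**
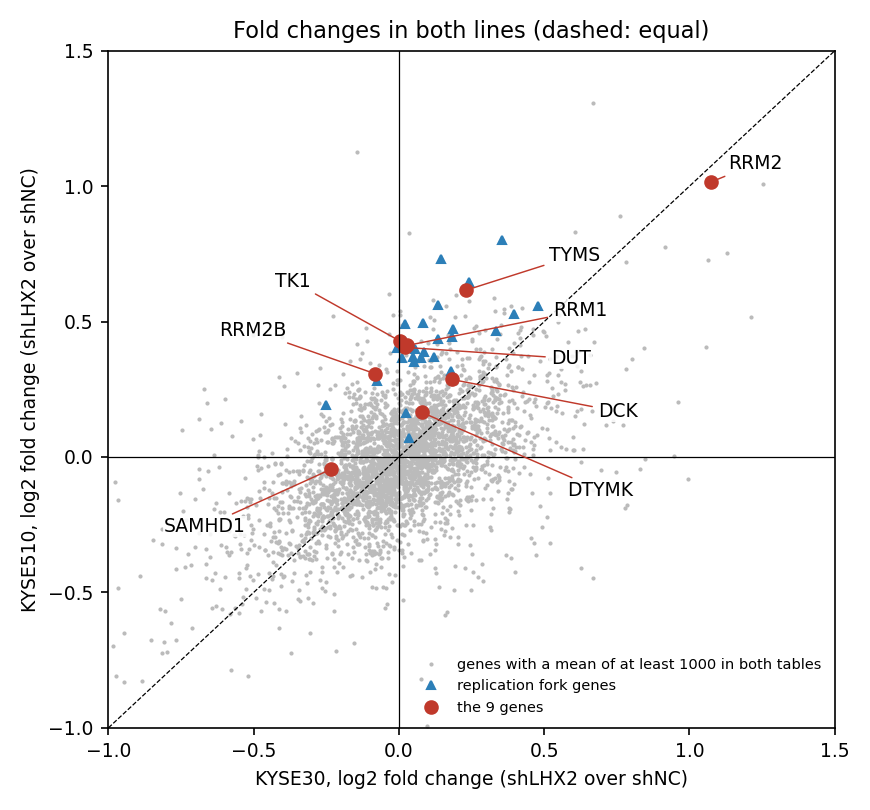
Log2 fold change in KYSE510 against KYSE30 for 3475 genes with a mean of at least 1000 in both tables (grey, 16 lie outside the axes), the replication fork genes (blue triangles) and the 9 genes (red). RRM2 lies near the line of equal change at the upper right, and TK1, RRM1, DUT and TYMS lie above that line, among the replication fork genes.

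The order of levels differed between the lines. Per kb of principal transcript, TK1 was the highest member in KYSE30 shNC (2196 and 2189 normalized counts per kb), followed by TYMS (1220 and 1209), RRM1 (642 and 695), DUT (606 and 651) and RRM2 (487 and 542). RRM1 and DUT overlapped there, as did DCK (239 and 254) and DTYMK (242 and 220), and RRM2B (119 and 110) and SAMHD1 (62.6 and 63.8) were lowest. In KYSE510 shNC the order ran from TYMS (2613 and 2419) over TK1 (1374 and 1325), DTYMK (763 and 689) and RRM2 (584 and 578) to DUT (454 and 415) and RRM1 (425 and 421), which overlapped. DCK (138 and 166) followed, and RRM2B (74.5 and 80.3) and SAMHD1 (80.7 and 70.9) overlapped at the bottom. With shLHX2, RRM2 stood behind TYMS and TK1 and above the other members in KYSE30 (1106 and 1059) and in KYSE510 (1177 and 1171).

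The 5 genes of at least 1000 mean counts whose pair of fold changes lay nearest that of RRM2, by Euclidean distance over 2 comparisons and among 3474 genes, were ALPP (1.25 in KYSE30 and 1.01 in KYSE510), MET (1.13 and 0.75), RAVER1 (0.92 and 0.78), CCNF (1.06 and 0.73) and PTTG1 (0.76 and 0.89). ALPP is a placental alkaline phosphatase with close paralogs, so its reads are uncertain. CCNF encodes cyclin F, the adaptor through which RRM2 is marked for degradation, and PTTG1 encodes securin.

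Genes that work beside the 9 were taken from lists by function. Of 26 replication fork genes, 22 rose in KYSE510 and 9 rose in KYSE30, and none fell, whereas centred on the reference genes 21 rose in KYSE510 but 2 rose and 5 fell in KYSE30. Of all genes tested, 7.89% rose in KYSE510 and 13.9% in KYSE30. After centring, 2448 of 12676 passed in KYSE510 (786 higher) and 5878 of 15923 in KYSE30 (1030 higher). Their median log2 fold change was 0.41 and 0.09, and their summed normalized counts per library (over 26 and 25 genes worked back) were 57724 to 58402 against 43357 to 44961 in KYSE510 and 57512 to 58986 against 53598 to 54091 in KYSE30. RPA1, a single-strand binding subunit, rose in both lines (0.56 ± 0.06 in KYSE510, adjusted p = 6.73e-20, and 0.48 ± 0.05 in KYSE30, adjusted p = 1.36e-22). The polymerase subunit POLD1 rose by 0.80 in KYSE510 (adjusted p = 9.88e-20) and 0.36 in KYSE30 (adjusted p = 1.13e-06), and DNA ligase LIG1 by 0.73 (adjusted p = 2.51e-17) and 0.14 (adjusted p = 0.0262), the latter -0.0074 after centring on the reference genes. The helicase subunit MCM3 rose by 0.49 in KYSE510 (adjusted p = 2.43e-14) and was at 0.02 in KYSE30 (adjusted p = 0.749; -0.13 and a fall after centring, adjusted p = 0.000978). These genes moved in the libraries in which RRM1, TK1 and DUT moved, and their part in that result was not tested. In bulk RNA, more cells in S phase and more RNA per cell cannot be told apart.

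Of 33 regulators of ribonucleotide reductase and of E2F targets, 13 rose and 6 fell in KYSE30, and 10 rose and 2 fell in KYSE510, with medians of 0.17 in each line. Over all tested genes 13.9% rose and 15.7% fell in KYSE30, close to the share of regulators that fell there, and 7.89% rose and 10.8% fell in KYSE510. Centred on the reference genes, 4 rose and 9 fell in KYSE30, and 9 rose and 3 fell in KYSE510. Among all genes so centred, 5878 of 15923 passed in KYSE30 (1030 higher) and 2448 of 12676 in KYSE510 (786 higher). CCNF rose by 1.06 ± 0.06 in KYSE30 (adjusted p = 1.15e-62) and 0.73 ± 0.09 in KYSE510 (adjusted p = 1.55e-15). MYBL2, a factor of the late cell cycle, rose by 0.29 in KYSE30 (adjusted p = 1.88e-05, lost after centring at 0.0572) and 0.47 in KYSE510 (adjusted p = 2.02e-13), and CDC20, an activator of the anaphase-promoting complex, by 0.28 (adjusted p = 7.16e-10) and 0.40 (adjusted p = 1.25e-10). CDK2, a kinase of S phase entry, rose by 0.60 in KYSE510 (adjusted p = 4.71e-08) and was at -0.03 in KYSE30 (adjusted p = 0.726; -0.19 and a fall after centring, adjusted p = 0.00384).

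Of 41 other nucleotide supply genes tested, 15 rose and 2 fell in KYSE30 and 10 rose and 4 fell in KYSE510, with medians of 0.13 in each line. The shares of all genes that rose and fell were 13.9% and 15.7% in KYSE30 and 7.89% and 10.8% in KYSE510, the last near that of this list. Centred on the reference genes, 7 rose and 7 fell in KYSE30, and 9 rose and 4 fell in KYSE510. Among all genes so centred, 5878 of 15923 passed in KYSE30 (1030 higher) and 2448 of 12676 in KYSE510 (786 higher). CAD, which opens pyrimidine synthesis, rose by 0.68 ± 0.05 in KYSE30 (adjusted p = 2.15e-37) and 0.27 ± 0.05 in KYSE510 (adjusted p = 2.24e-06). ATIC, which closes purine synthesis to IMP, rose by 0.53 (adjusted p = 1.90e-24) and 0.23 (adjusted p = 0.00227), while CTPS1, a CTP synthase, rose by 0.39 in KYSE30 (adjusted p = 5.49e-12) and was at 0.05 in KYSE510 (adjusted p = 0.748). UPP1, a uridine phosphorylase, passed in opposite directions, at 0.37 in KYSE30 (adjusted p = 2.65e-05) and -0.65 in KYSE510 (adjusted p = 1.01e-23).

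The folate cycle feeds TYMS with its methyl donor. Of 10 genes of that cycle tested, 2 rose and 2 fell in KYSE30, with a median of -0.0066, where 13.9% of all genes rose and 15.7% fell. In KYSE510, 0 of the 10 passed the deposited Wald test, with a median of -0.06, and 1 had an unadjusted p under 0.05. There limma on the reads called 4 of the 10, and 4805 of all 12606 genes it was run on. Centred on the reference genes, 1 rose and 5 fell in KYSE30, and 1 fell in KYSE510. Among all genes so centred, 5878 of 15923 passed in KYSE30 (1030 higher) and 2448 of 12676 in KYSE510 (786 higher). The folate carrier SLC19A1 rose by 0.45 in KYSE30 (adjusted p = 2.35e-05) and was at 0.16 in KYSE510 (adjusted p = 0.430). MTHFD1L, a mitochondrial formate-producing enzyme, rose by 0.40 in KYSE30 (adjusted p = 0.00823, lost after centring at 0.118) and was at -0.06 in KYSE510 (adjusted p = 0.603). FPGS, which adds glutamates to folates, was at -0.37 in KYSE30, a fall (adjusted p = 2.70e-07), and at -0.19 in KYSE510 (adjusted p = 0.0549, and 0.0202 after centring). The hydroxymethyltransferase SHMT1 was at -0.14 in KYSE30, a fall (adjusted p = 0.00357), and at 0.18 in KYSE510 (adjusted p = 0.240).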

How the data were processed

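Expression in KYSE30 and KYSE510 was measured by RNA-seq in 2 libraries per group, and shLHX2 was set against shNC within each line. The submitters' processing notes name hg38 and DESeq. The aligner, counting rule, use of strand and versions are not given in the sources used. The deposited tables hold columns of the comparison alone, with 0 columns of values per library. The deposited mean normalized count is a signal averaged over the 4 libraries of a line. Fold changes and their errors, as deposited, are log2 values, the deposited Wald statistic is a score, and each gene has a deposited p-value, adjusted where its mean was high enough. These values were read as they stand, in place of a fit of counts. The statistic equalled the fold change over its error, and Benjamini-Hochberg adjustment of the p-values gave back the adjusted ones.

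A gene was past the test at an adjusted p under 0.05, over 15923 genes in KYSE30 and 12676 in KYSE510. To compare the lines, the difference of both fold changes was divided by the root of their summed squared errors (z, two-sided), with Benjamini-Hochberg over 12311 genes. Intervals are at 95%.

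The reads of single libraries were reconstructed. Size factors came from genes with 1 read in all, and in KYSE510 they were refined by least squares on genes with a single solution. The deposited standard error set the spread assumed for each gene. Then 4 whole numbers were sought that return the deposited mean and, within 1e-05 on the log2 scale, the deposited fold change. This gave reads for 99.2% of tested genes in KYSE30 and 99.4% in KYSE510, and for all 9 members, with 1 solution each but TYMS in KYSE510, which had 3. On simulated data, 300 genes per line, it returned the right reads for 100% and 99.7% and wrong reads for 0%. Libraries within a group carry no number in these values.

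Alternatives used limma 3.58.1 on log2(reads over size factor + 0.5), also without each library in turn, centring of fold changes, a fold limit of 1.5 and filters on the mean. Positions and lengths are from GENCODE 29 and promoters from RefSeq (GRCh38.p14), where 8 of the 9 members had an entry. Named genes are the members, LHX2, genes overlapping a member or its copies, 4 genes per list with the smallest p (in the folate list among those kept) in either line, any that passed in opposite directions, and the 5 nearest RRM2. One gene of the folate list is not reported here and was left out of its counts. The members and lists were chosen with earlier results of these data known.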

Additional observations from a re-analysis of the deposited data

Results flagged for a closer look

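By the test of the difference itself, shLHX2 over shNC differed between KYSE510 and KYSE30 for 4 of the 8 genes other than RRM2. Of the 12311 genes tested in both lines, 11.9% differed, and 5.95% differed with the larger value in KYSE510. Loss of LHX2 in KYSE510 could not be checked in these libraries. The difference in log2 fold change was 0.43 for TK1, 0.39 for TYMS, 0.38 for RRM1 and 0.38 for DUT, each larger in KYSE510. Less the medians of the reference genes of each line (0.15 in KYSE30 and 0.03 in KYSE510), it was 0.55, 0.51, 0.51 and 0.51. That centring raises the difference of every gene by the same amount. Groups of 2 libraries are too small for a check of single outlying libraries.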

How the results depend on the processing

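No paired analysis was possible because the tables carry no replicate numbers and the reads worked back cannot be tied to the numbers of the labels. Counts here include RRM2, which was chosen on this contrast. With at least 1.5-fold asked as well, 1 member (RRM2) is counted in KYSE30 and 2 (RRM2 and TYMS) in KYSE510, against 2 and 5. With limma on the reads 8 passed in KYSE510 and 3 in KYSE30, and without 1 library in turn 6 to 7 and 2 to 3. limma called 5842 genes in KYSE30 and 4805 in KYSE510, against 4714 and 2366. Centring on the reference genes shifted fold changes by 0.15 in KYSE30 and moved the share of calls that were higher from 47.0% to 17.5% there, from 42.3% to 32.1% in KYSE510 and from 50.1% to 82.2% between the lines. It changed the sign in KYSE30 of RRM1 (-0.12), DTYMK (-0.074), DUT (-0.13) and TK1 (-0.15). With it 5 members differed between the lines, RRM2B being added. Of all 12311 genes, 1984 then differed (1631 higher in KYSE510), against 1461 before. Centring on all genes turned TK1 in KYSE30 to -0.00088. Leaving 1 library out in limma changed the sign of values near 0 only. In KYSE30 RRM1 ranged from -0.029 to 0.085, DUT from -0.032 to 0.072 (-0.012 without another library) and TK1 from -0.018 to 0.024. SAMHD1 in KYSE510 ranged from -0.14 to 0.050 (0.024 without another library). RRM2 ranged from 1.00 to 1.15 in KYSE30 and from 1.01 to 1.02 in KYSE510. Filters on the mean changed no count of members, and the cause of these changes was not tested. With 2 libraries per group, DTYMK, DCK, RRM2B and SAMHD1, at means of 293 to 949, had standard errors of 0.09 to 0.16, which limits what could be detected.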
